A study of Arabidopsis thaliana with 16 samples.

Results

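The 7 genes described here encode the sensors and transducers of the unfolded protein response (UPR) in Arabidopsis thaliana: BZIP28 (AT3G10800), BZIP17 (AT2G40950), BZIP60 (AT1G42990), IRE1A (AT2G17520), IRE1B (AT5G24360), S1P (AT5G19660) and S2P (AT4G20310). They were chosen by locus for their role in the response, with earlier results of these data known. The annotation holds 27444 protein-coding genes on chromosomes 1 to 5, and all 7 were found in it. A gene was counted as having an HSFA1b peak in a list when a peak interval overlapped the gene or the 1000 bp on either side of it.

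The UPR is set off when misfolded proteins build up in the endoplasmic reticulum (ER), and heat is one of the conditions that bring this about. It has a pair of arms in plants. In the first, the transcription factors BZIP28 and BZIP17 are made as ER membrane proteins, move to the Golgi under stress and are cut by the site-1 and site-2 proteases, S1P and S2P, so that their cytosolic part enters the nucleus. In the second, the ER membrane kinase and ribonuclease IRE1, encoded by IRE1A and IRE1B, splices the mRNA of BZIP60 so that the transcription factor loses its membrane anchor. HSFA1b is a class A1 heat shock factor, a transcription factor of the cytosolic heat shock response.

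HSFA1b binding was mapped by ChIP-seq, the sequencing of DNA that is immunoprecipitated with a chromatin protein, in leaves of 5-week-old Col-0 plants, in 16 samples that form 8 groups of 2. NP:HSFA1b plants carry genomic HSFA1b fused to eYFP under the native HSFA1b promoter, and 35S:HSFA1b plants carry HSFA1b fused to RFP under the viral 35S promoter, which drives it in most tissues. Chromatin was precipitated with antibodies to GFP and to RFP respectively, from these plants and from matching control plants. Non-stress (NS) plants stayed at 23 °C and a relative humidity of 60%, while heat stress (HS) was 30 min at 37 °C and 86% humidity.

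Each of the 4 deposited peak lists is 1 call on 2 pooled treatment libraries, so every value below is a single value, with no error between replicates and no test across samples. The NP treatment pools held 6783161 fragments without stress and 2438702 with heat, the 35S pools 19579327 and 13481546, and the NP lists were each called against 2 pooled control libraries. The 35S NS list was called against 4 control libraries, of which 2 were also the 2 controls of the 35S HS list. Fold enrichment is the ratio of the pileup of fragments at the summit, the highest point of a peak, to the local background. The main set holds peaks that reach a fold enrichment of 2 and whose summit is outside the gene-poor pericentromeres. It counts 876 peaks in the NP NS list, 1181 in the NP HS list, 3444 under 35S without stress and 1342 under 35S with heat. Median width of the main-set peaks was 350.5 bp, 299 bp, 1598.5 bp and 3139 bp in the same order. Over all deposited 35S peaks it was 615.5 bp in NS and 666 bp in HS, and the widest measured 5098380 bp and 1264124 bp. Promoter, tag, antibody, control plants and depth all differ between the constructs and cannot be told apart.

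BZIP28 was the one gene of the 7 with main-set peaks in NP plants, and it had one in both conditions. All 4 lists placed a peak over its start, on chromosome 3 between 3379029 and 3379615 (TAIR10 coordinates, plus strand), where the RefSeq gene begins at 3379168 and its coding sequence at 3379326. The stretches of the plus strand that matter there are written 5′ to 3′. The first line runs up to the annotated start, with the G-box in capitals. The second is the closest match to a heat shock element (HSE, the site of heat shock factors) in the peaks, which lies in the 5′ UTR, with its 13 bases in capitals. The last is the beginning of the coding sequence, with the bases under the NP NS and NP HS summits in capitals, in that order.
BZIP28 start, chr3:3379108-3379173: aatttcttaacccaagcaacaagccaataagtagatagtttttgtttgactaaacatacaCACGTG
BZIP28 near-HSE, chr3:3379271-3379299: accgtgtgGAACCATCGAGAAgcgaagcc
BZIP28 coding, chr3:3379326-3379443: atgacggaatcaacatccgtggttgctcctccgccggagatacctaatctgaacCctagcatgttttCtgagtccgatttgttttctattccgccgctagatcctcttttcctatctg

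In the main set, 1 of 7 genes had a peak in NP NS, where 4.14% of all protein-coding genes had one, and 1 of 7 in NP HS, against 5.63%. Both were BZIP28. A main-set peak in both NP lists was held by 2.02% of all genes, and in NP NS, NP HS and 35S NS together by 1.56%, and BZIP28 was again the 1 member in each. In 35S NS, 3 of 7 genes had a main-set peak (BZIP28, BZIP17 and S1P) against 34.8% of all genes, and in 35S HS 0 of 7 against 18.8%. When every deposited peak was counted, 2 of 7 genes had one in NP NS (4.41% of all genes) and 2 of 7 in NP HS (5.71%), namely BZIP28 and BZIP60. All 7 had one in 35S NS, where 75.1% of all genes did, and 6 of 7 in 35S HS, where 52.1% did, S2P being the exception. When the summit itself had to lie in the gene or its flank, 2 of 7 genes were left in the 35S NS main set and 14.7% of all genes, and without peaks wider than 1000 bp 2 of 7 and 5.46%. Each of these counts rests on few genes, and none was tested.

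**Figure D1:**
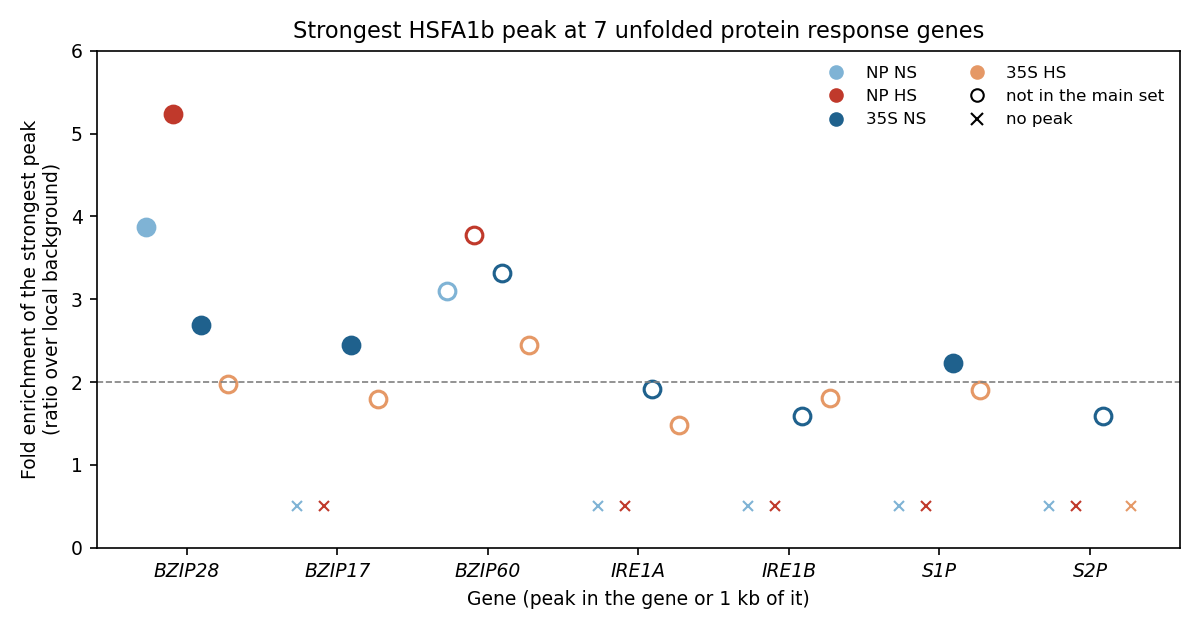
Fold enrichment (ratio over local background, y axis) of the strongest deposited peak in each of the 7 genes or 1000 bp of it (x axis), 1 point per pooled list. Filled points are main-set peaks, open points are peaks under the limit of 2 (dashed line) or in the pericentromere, and crosses at the bottom mark lists without a peak. BZIP28 is the one gene with filled NP points, 3.87 in NS and 5.23 in HS.

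At BZIP28 the NP NS peak covered 3379151 to 3379537, had its summit at 3379380, 212 bp into the gene and inside the first coding exon, and reached a fold enrichment of 3.87 from 44 fragments. The NP HS peak covered 3379131 to 3379533 with its summit at 3379393, 225 bp into the gene, and reached 5.23 from 23 fragments. The summits lay 13 bp apart and the intervals shared 383 bp. Within their own main sets, 76.5% of NP NS peaks and 63.6% of NP HS peaks had a lower fold enrichment. The q-value, as −log10, was 11.1 in NS and 8.81 in HS.

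The 35S NS peak at BZIP28 was 587 bp wide and reached 2.69 from 250 fragments, above 81.8% of its main set. Its summit at 3379303 lay in the 5′ UTR, 135 bp from the start, and 77 bp upstream of the NP NS summit. The 35S HS peak had its summit 149 bp from the start, also in the 5′ UTR and 76 bp from that of NP HS. Its fold enrichment of 1.98, from 129 fragments, fell just under the limit of 2. The 35S NS interval covered 100% of the NP NS interval, and the 35S HS interval 91.3% of the NP HS one. A second 35S NS peak, with a fold enrichment of 1.37, lay 1994 bp into the gene.

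The peak over the BZIP28 start was narrow next to the gene: it covered 15.1% of the gene in NP NS, 14.9% in NP HS and 17.7% in 35S HS, and both 35S NS peaks together 31.5%. BZIP28's start was the nearest protein-coding start to the summit in all 4 lists. The upstream protein-coding gene AT3G10790 ends 799 bp before BZIP28, with an annotated RNA gene between them. The same intervals therefore fall in the flank of AT3G10790 too.

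**Figure D2:**
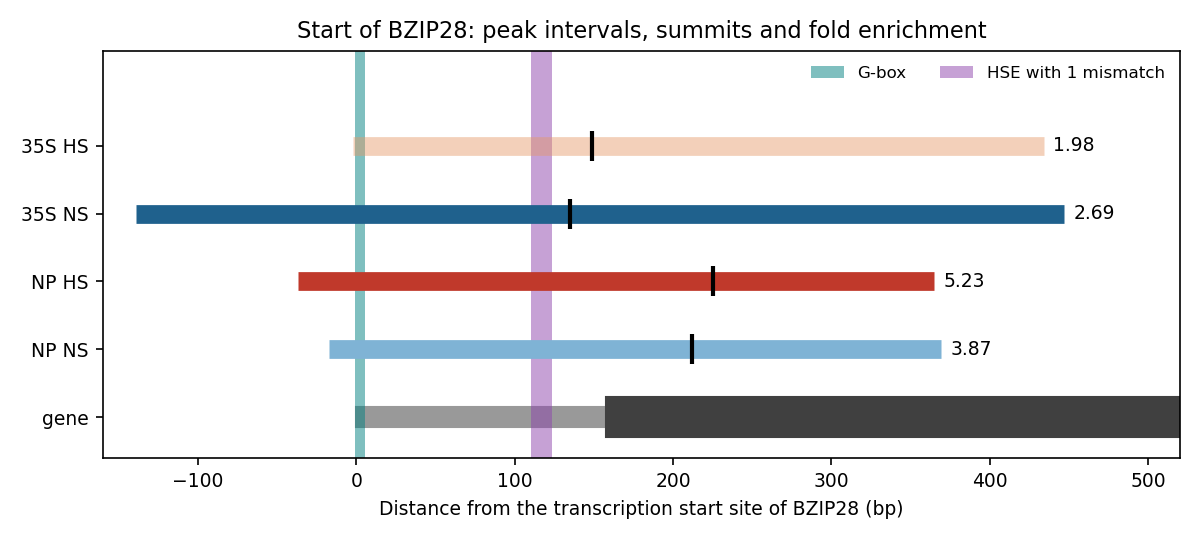
Peak intervals (bars), summits (black ticks) and fold enrichment (numbers) of the 4 lists over the start of BZIP28, plotted by distance from the annotated transcription start site (bp, x axis). Grey is the 5′ UTR, black the coding sequence, and the faded bar is below the main-set limit. The NP summits, at 212 and 225 bp, lie in the coding sequence, and the 35S summits, at 135 and 149 bp, in the 5′ UTR close to the HSE with 1 mismatch.

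From NS to HS the fold enrichment at BZIP28 went from 3.87 to 5.23 in NP plants, a log2 difference of 0.43. As fragments at the summit per 1e6 fragments of the pool (RPM) it went from 6.49 to 9.43, a log2 difference of 0.54, whose 95% interval of -0.25 to 1.30 covers counting error only and includes no change. Of the 554 protein-coding genes with a main-set peak in both NP lists, 91.7% had the higher fold enrichment in HS, with a median log2 difference of 0.76. In 35S plants the BZIP28 values went the other way, from 2.69 to 1.98 (log2 difference of -0.44) and from 12.8 to 9.57 RPM (log2 difference of -0.42, counting interval -0.73 to -0.10). Of the 14057 genes with a deposited peak in both 35S lists, 78.6% had the lower fold enrichment in HS, with a median of -0.28. In each construct BZIP28 moved with the larger part of its list, and neither direction has a replicate check.

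The local background set the scale of these ratios. At both NP peaks of BZIP28 and at every 35S peak of the 7 genes the background was the most common value of its list: 10.6 fragments in the NP NS list and 3.59 under NP HS, 92.3 fragments in 35S NS and 64.4 in 35S HS, with the scale factor of the last list divided out. At those peaks the fold enrichment therefore follows the pileup alone. In the 35S lists 98.2% of all NS peaks and 96.2% of all HS peaks had that background to within 1%, and in the NP lists 26.0% and 51.9%.

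The sequence under these peaks was searched on both strands for the HSE as 3 repeats without a mismatch (GAANNTTCNNGAA or TTCNNGAANNTTC), the G-box CACGTG, the UPR element TGACGTGG and the ER stress response element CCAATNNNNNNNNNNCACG. The G-box and the UPR element share the bases ACGTG, and CACG is part of the G-box. Of the 4 main-set peaks with their summit in a member gene or its flank, 0 had any of these within the 100 bp centred on the summit. An HSE stood in 3.31% of such windows over all NP NS main-set peaks, in 5.17% over NP HS, in 1.45% and 1.12% over the 35S peaks of NS and HS, and in 0.160% of the 100 bp before all protein-coding starts. A G-box stood in 7.19%, 8.04%, 11.0% and 6.33% of the summit windows, and in 3.61% of the windows before starts. The UPR element was found in 1.14%, 2.12%, 1.36% and 0.522%, and in 0.754% before starts, and the ER stress response element in 1.14%, 1.78%, 0.697% and 0.373%, and in 0.394% before starts.

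The BZIP28 5′ UTR holds an HSE with 1 mismatch at 3379279 to 3379291, T6A against the first form of the pattern counted from its first base, 111 to 123 bp into the gene. Its middle lay 18 bp from the 35S NS summit and 32 bp from the 35S HS summit, but 95 bp and 108 bp from the NP NS and NP HS summits. It was therefore inside the 100 bp windows of the 35S summits and outside those of the NP summits. With 1 mismatch allowed, 6.91% of the 35S NS windows, 6.04% of 35S HS, 88 of 876 NP NS windows and 19.9% of NP HS held an HSE, as did 3.13% of the windows before starts. The G-box shown in the first line begins on the first base of the annotated gene, and lay 210 bp from the NP NS and 223 bp from the NP HS summit.

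Over the 4 lists, the fold enrichments most like those of BZIP28, by the Euclidean distance of their log2 values, were those of AT3G10790, at a distance of 0 because it shares the peaks, bHLH071 (AT5G46690) at 0.19 and CRK2 (AT1G70520) at 0.19. The bHLH071 values were 4.10 and 5.45 in NP plants under NS and HS, and 2.95 and 2.10 in 35S plants. Those of CRK2 were 4.06, 5.82, 2.85 and 2.03 in the same order.

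BZIP17, the closest relative of BZIP28 among the 7 and a regulator of salt stress responses as well, had no deposited peak in either NP list. Its peaks came from 35S plants. The gene lies on chromosome 2 from 17087565 to 17090556, minus strand. In 35S NS the strongest peak had its summit 954 bp upstream of the start with a fold enrichment of 2.44 from 227 fragments, and a second, in the 5′ UTR 164 bp from the start, reached 1.99. In 35S HS a peak was called at each place again, 945 bp upstream at 1.80 from 117 fragments and 197 bp into the gene at 1.48. Both 35S HS values were below the main-set limit. At the upstream peak the RPM went from 11.6 to 8.68, a log2 difference of -0.42 with a counting interval of -0.75 to -0.09. Another 35S NS peak, at 1.43, had its summit just past the 3′ end of BZIP17 and 162 bp from the start of ERS1, which encodes an ethylene receptor.

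The closest matches to an HSE at BZIP17 are shown on the plus strand, with the 13 bases in capitals. The first lies just before the start, under the 5′ UTR peak of 35S NS but 172 bp from its summit. The second lies under the upstream peak, 64 bp from the 35S NS summit and 73 bp from that of 35S HS. Each has 1 mismatch with the second form of the pattern, C13A in the first and T1C in the second.
BZIP17 start, chr2:17090557-17090580: aTTCATGAAACTTAtaatatccaa
BZIP17 upstream, chr2:17091558-17091590: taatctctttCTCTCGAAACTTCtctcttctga

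BZIP60, the transcription factor of the IRE1 arm, had deposited peaks in all 4 lists, and none with its summit near its start. The gene lies on chromosome 1 from 16135723 to 16137463, minus strand, inside the region taken as pericentromere (13150001 to 16750000), so that all its peaks stood outside the main set. In NP NS 1 peak of 850 bp had its summit 1402 bp into the gene, on the first base of the 3′ UTR, with a fold enrichment of 3.10 from 35 fragments. In NP HS a peak of 221 bp had its summit 10 bp from there, at 2.99 from 21 fragments. The stronger NP HS peak, at 3.77 from 27 fragments, had its summit 706 bp past the end of BZIP60, in an intron of the neighbouring gene AT1G42980.

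The change at BZIP60 from NP NS to NP HS depended on which peaks were set side by side. The strongest peaks, which do not overlap, gave a log2 difference in fold enrichment of 0.28, and the overlapping pair gave -0.05. The overlapping pair went from 5.16 to 8.61 RPM, a log2 difference of 0.74 with a counting interval of -0.12 to 1.56. The background differed between these peaks: in NP NS it was the most common value of the list, and in NP HS it was 1.77 times that value at the overlapping peak and 1.79 times at the stronger one. In the 35S lists BZIP60 lay inside single intervals of 808833 bp (NS) and 290004 bp (HS). Their summits lay 255222 bp and 157265 bp beyond the gene, nearest to the starts of AT1G42420 and PMI1 respectively. The fold enrichments of these intervals, 3.32 and 2.45, are thus values of places far from BZIP60.

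**Figure D3:**
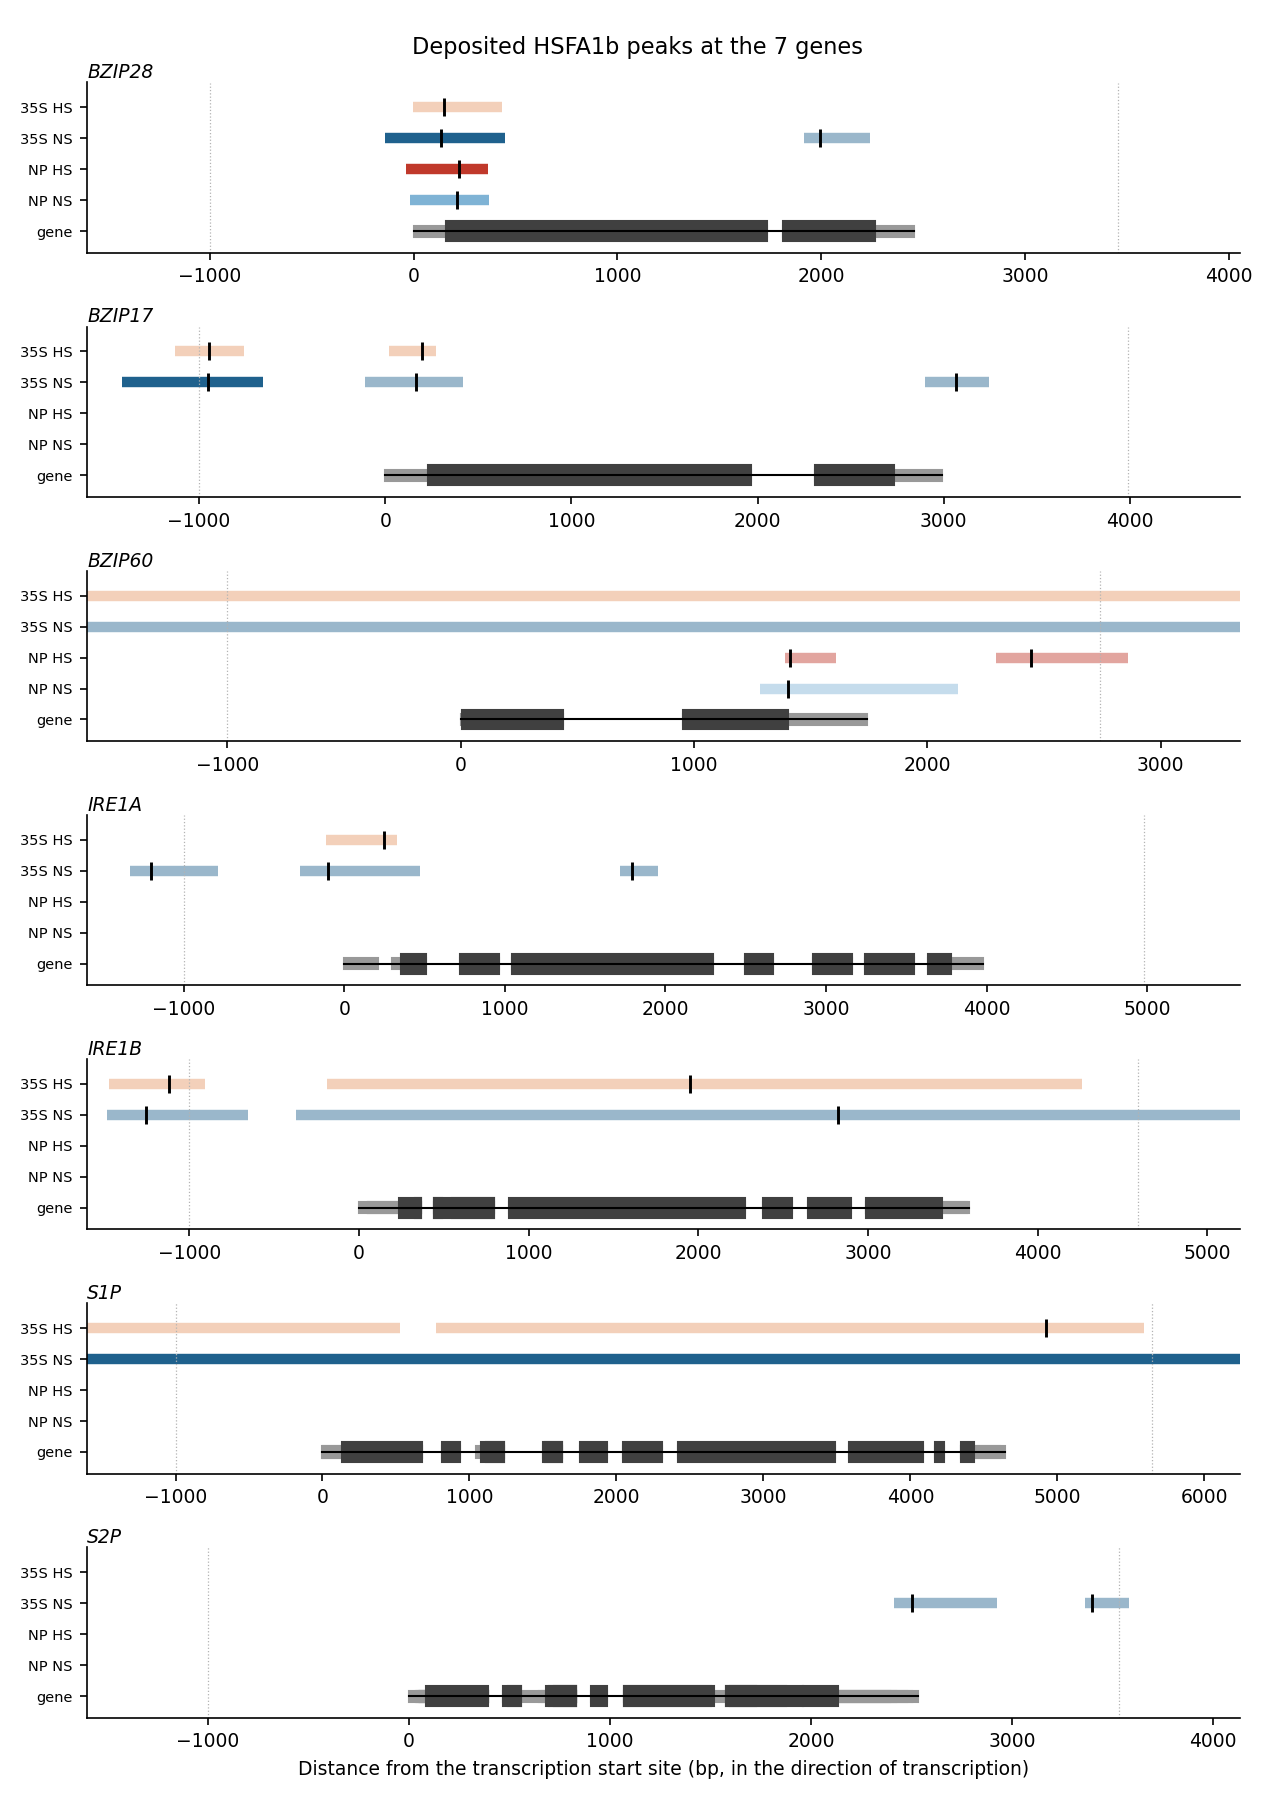
Deposited peaks of the 4 lists (coloured bars, summits as black ticks) at each of the 7 genes, plotted by distance from the transcription start site (bp, x axis) in the direction of transcription. Gene models are drawn with exons in grey and coding parts in black, dotted lines mark 1000 bp beyond the gene, faded bars are not in the main set, and bars that reach the edge go on beyond it. NP peaks lie over the start of BZIP28 and over the 3′ end of BZIP60, and the other 5 genes have 35S peaks alone.

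Neither IRE1 gene had a peak in an NP list, and no 35S peak at either reached the limit of 2. IRE1A lies on chromosome 2 from 7617151 to 7621129, plus strand. In 35S NS its strongest peak had a fold enrichment of 1.92 from 178 fragments, with the summit 101 bp upstream of the start. In 35S HS 1 peak of 1.48 from 96 fragments overlapped it, with the summit 249 bp into the gene, in an intron and 350 bp from the NS summit. The log2 difference in RPM was -0.35, and its counting interval of -0.73 to 0.01 includes no change. Of the other 35S NS peaks, one of 1.32 lay within IRE1A, and one of 1.51 had its summit outside the 1000 bp flank and nearest to the start of EMB2763.

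IRE1B lies on chromosome 5 from 8316388 to 8319981, plus strand. It was covered over 100% of its length in both 35S lists. In NS a peak of 6066 bp reached 1.58, and in HS one of 4448 bp reached 1.81. The NS peak ran past the end of IRE1B and over AT5G24370, whose start was the nearest to the summit of that peak. The 100 bp around the summit of the NS peak held an HSE with 1 mismatch, and those around the HS summit did not. The other 35S peaks at IRE1B, 1.59 in NS and 1.62 in HS, had their summits more than 1000 bp upstream, nearest to the start of AT5G24355. Of the 6 members with peaks in both 35S lists, IRE1B was the one with the higher value in HS. Of all 14057 such genes, 21.4% had the higher value in HS. The 6 members include BZIP60 and S1P, whose strongest 35S peaks had their summits outside the gene and its flank. At IRE1B the overlapping peaks had summits 872 bp apart. The log2 difference in fold enrichment between them was 0.20, and in RPM 0.23 with a counting interval of -0.13 to 0.59.

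The proteases had no NP peak either. S1P, the subtilisin-like protease that makes the first cut, lies on chromosome 5 from 6641907 to 6646550, minus strand. It was counted in the 35S NS main set through a peak of 26262 bp with a fold enrichment of 2.23, whose summit was 5832 bp upstream of the S1P start and 76 bp from the start of STT3A, which encodes a subunit of the ER oligosaccharyltransferase. When the summit itself had to lie in the gene or its flank, S1P was no longer counted. In 35S HS it was overlapped by peaks of 1.75 and 1.90. S2P, the intramembrane metalloprotease that makes the second cut, lies on chromosome 4 from 10961556 to 10964089, plus strand. It had 35S NS peaks of 1.60 in its 3′ UTR, 2502 bp from the start, and of 1.43, 863 bp past its end, and it was the one gene of the 7 without a deposited peak in 35S HS.

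A deposited 35S summit within 250 bp of the start was found for BZIP28, BZIP17 and IRE1A in both conditions. These were 3 of 7 genes in 35S NS, where 25.4% of all protein-coding genes had such a summit, and 3 of 7 in 35S HS, where 12.7% did. For these genes the distances were 135 bp, 164 bp and 101 bp in NS and 149 bp, 197 bp and 249 bp in HS. The other 4 genes had no summit closer than 1253 bp in NS and 1117 bp in HS. Of the summits at BZIP28, BZIP17 and IRE1A, only that of BZIP28 in NS belonged to a main-set peak. The rest were below the fold enrichment limit of 2, the HS peaks of BZIP17 and IRE1A at 1.48. Among the 20 other UPR genes described next, 12 had such a summit in 35S NS and 9 in 35S HS.

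Of 20 other UPR genes listed for comparison, with earlier results known, 6 had a main-set peak under NP NS and 8 under NP HS, where the shares of all genes were 4.14% and 5.63%. In the 35S lists 10 had one in NS and 4 in HS, against 34.8% and 18.8% of all genes. With all deposited peaks the NP counts were 6 and 9 of 20 (4.41% and 5.71% of all genes) and the 35S counts 18 and 15 (75.1% and 52.1%). In the NP lists 5 genes had a main-set peak in both conditions, 1 in NS alone, 3 in HS alone and 11 in neither. The summit was nearest to the gene's own start for 5 of the 6 in NS and 6 of the 8 in HS.

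Among the cell survival and stress output genes, TIN1, a gene induced by the ER stress agent tunicamycin, reached 6.51 in NP NS and 10.4 in NP HS, with summits 13 bp and 45 bp before its start. BI-1, the ER membrane suppressor of cell death Bax inhibitor-1, reached 3.53 and 8.94, with summits 14 bp and 71 bp before its start. AGB1, the β subunit of the heterotrimeric G protein, had an NP HS peak alone, of 3.02. Its summit was 2650 bp downstream of the AGB1 start, past the end of the gene (16477031 to 16479620 on chromosome 4). ERO1, an oxidoreductase that passes oxidising power to protein disulphide isomerase, reached 3.01 and 6.76, with summits 69 bp and 70 bp before its start.

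The BiP genes encode the ER HSP70 that binds the lumenal parts of the sensors. BIP2 had an NP HS peak of 9.59 with its summit 77 bp into the gene and none in NP NS. BIP1 had an NP HS peak of 12.5, but it lies in the region taken as the pericentromere of chromosome 5 and was not in the main set. BIP1 and BIP2 are close copies, and how the authors' alignment shared reads between them is not given in the sources used here. The BIP3 peaks of 2.35 in NP NS and 4.85 in NP HS had their summits more than 3 kb from its start and nearest to that of SRC2.

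Of the further transcription factors, the membrane-bound NAC062 reached 2.41 in NP NS, 718 bp into the gene, and 2.83 in NP HS, where the summit was nearest to the start of AT3G49520. NAC089, another membrane-bound NAC factor, had an NP NS peak of 2.32, 147 bp into the gene, and none in NP HS. Of the 6 genes of ER-associated degradation 0 had a main-set peak in NP NS and 1 in NP HS, DER1, which encodes a derlin, at 5.89 and 273 bp into the gene.

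All 5 list genes with a main-set peak in both NP conditions had the higher fold enrichment in HS. Of all 554 protein-coding genes with such peaks, 91.7% did. The list genes had log2 differences of 0.23 (NAC062) to 1.34 (BI-1) and a median of 1.04, where the median over the 554 genes was 0.76. The median of 1.04 is the BIP3 value, from peaks with summits 3360 bp and 3200 bp downstream of its start, nearest to SRC2. The NAC062 value compares separate peaks, with summits 718 bp and 2724 bp downstream of its start, the latter nearest to AT3G49520. TIN1, at 0.68, had the smallest difference of the other 4, and BZIP28 was at 0.43. In the 35S lists the 15 list genes with a deposited peak in both conditions all had the lower value in HS, as did 78.6% of all 14057 such genes. The median log2 difference was -0.31 against -0.28 over all genes. Some of these values come from distant summits, in 35S NS 52639 bp from the start of BIP2 and 27465 bp from that of HRD1B.

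**Figure D4:**
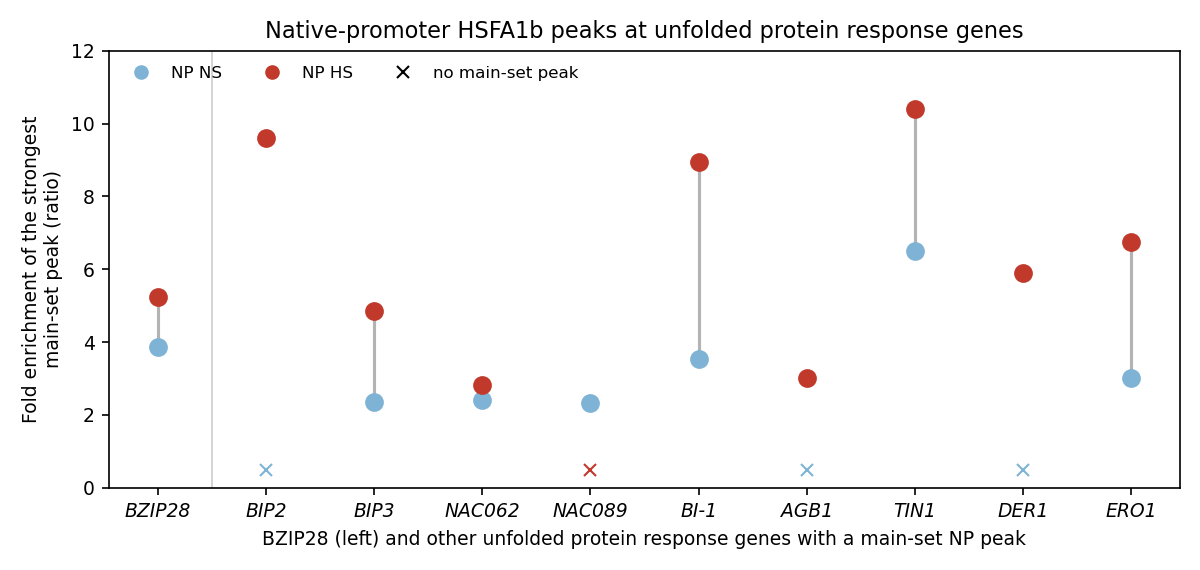
Fold enrichment (ratio, y axis) of the strongest main-set NP peak in NS (light blue) and HS (red) at BZIP28 and at the 9 other UPR genes with one, with crosses for lists without a main-set peak. Grey lines join the values of 1 gene. BZIP28 goes from 3.87 to 5.23 between the pooled lists, less than TIN1 (6.51 to 10.4) or BI-1 (3.53 to 8.94).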

How the data were processed

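Leaf ChIP-seq libraries were grouped from their labels. The authors aligned paired reads to TAIR10 with GSNAP, removed duplicates with SAMtools and called peaks with MACS2 (2.0.10.20131028 per the file headers, q limit 0.05) on pooled libraries. The deposited lists give for each peak the pileup (signal, fragment coverage at the summit), the fold enrichment (a ratio) and the −log10 of the q-value, and these were used as deposited. For 35S HS the pileup values came in steps of 0.721, a scale factor of the caller that was divided out.

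The 7 members, the 20 comparison genes and the rules were chosen with earlier results of these data known. Genes came from RefSeq's annotation of the same chromosomes (TAIR10.1), and all 27 loci were found. Pericentromeres were taken as runs of 500 kb windows, moved by 100 kb, with under 50% of the median of 130 genes, 16.7 Mb in all. The study excludes pericentromeric peaks and those broad peaks that lie over the bodies of highly transcribed genes. Its limits for these are not given in the sources used here, and broad peaks were kept. Background pileup was recovered from pileup and fold enrichment with the caller's pseudocount of 1. Counting intervals are 95% exact binomial intervals of the fragments at the summit and cover counting error only. Named were all 7 members, list genes with a main-set NP peak, the 3 genes most like BZIP28, and genes whose start lies nearest to a member's peak. The caller's genome size was 134634692 bp. Overlap counting was tested on simulated intervals. Python 3.11.15, numpy 2.4.6, pandas 2.3.3 and scipy 1.17.1 were used. Alternatives to the fold enrichment limit, q limit, flank, width, summit rule, peak pairing and motif windows were run.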

Additional observations from a re-analysis of the deposited data

Results flagged for a closer look

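At BZIP28 the log2 difference in fold enrichment from NS to HS was 0.43 in NP plants and -0.44 in 35S plants, so the constructs moved in opposite directions. Each side is 1 pooled list against another, and the contrast of constructs was not tested. Of all protein-coding genes with a main-set peak in both conditions, 91.7% of 554 were higher in HS in NP plants and 86.3% of 3914 were lower in HS in 35S plants. With any deposited peak the shares were 92.1% of 580 and 78.6% of 14057.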

How the results depend on the processing

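No paired analysis was possible because each list pools its libraries and carries no replicate numbers, and for the same reason no library could be left out. Without a fold enrichment limit, 6 members had a peak in 35S NS and 5 in 35S HS, of 20 list genes 16 and 13, and of all genes 70.1% and 50.1%. At a limit of 3, 0 members and 3 list genes were left in 35S NS, 0 list genes in 35S HS and 3 in NP NS, with 11.0%, 1.84% and 2.17% of all genes. With the summit required in the window, 2 members and 6 list genes (14.7% of all genes) were left in 35S NS, and 0 members and 2 list genes (6.30%) in 35S HS. Without peaks over 1000 bp wide, 2 members and 3 list genes (5.46%) were left in 35S NS and none of either (0, 1.73%) in 35S HS. Counting peaks in the gene alone gave 2.63% of all genes in NP NS and 3.26% in NP HS. With pericentromeric peaks kept, chosen after seeing the data, 2 members had a peak in NP NS and 2 in NP HS (4.19% and 5.69% of all genes). In the 35S lists 4 members had one in NS and 1 in HS (38.7% and 19.7% of all genes). The member in 35S HS was BZIP60, through the interval of 290004 bp with its summit 157265 bp beyond the gene. At BZIP60 the NP difference of 0.28 was 1.10 relative to the fragments of the pool and -0.052, the opposite sign, between overlapping peaks, where the pairing itself changes which peaks are compared. With 1 mismatch allowed, 1 of 4 member summits had an HSE. At BZIP28 in NP plants the overlapping peaks are the same pair as the strongest ones, so that alternative could not differ, and the RPM difference of 0.54 has a counting interval that includes no change. No 35S difference of main-set peaks could be given, since 0 members had one in 35S HS. NP HS had the fewest fragments, and its BZIP28 summit rests on 23.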
